A study of Homo sapiens with 24 samples.

Results

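The comparison described here is a difference of differences. It sets the change from parental to temozolomide-resistant cells in the LN229 glioblastoma line against the same change in the U87 MG line, all in DMSO, and uses 12 of the 24 libraries of the study. A gene was taken if both tables listed it under the same Ensembl identifier, which held for 19164 of the 28099 genes of the U87 table and the 22676 of the LN229 table. It also needed a mean of at least 10 over the 12 libraries, which left 15971 genes. Each of the 4 groups had 3 libraries. U87 MG and its resistant derivative U87-R grew in EMEM with 10% serum, and LN229 and its resistant derivative LN229-R in DMEM with 5% serum. The medium of both resistant derivatives also held 50 µM temozolomide, so resistance and the drug in the medium cannot be told apart. The cells of all 12 libraries received the solvent DMSO for 96 h. The U87 libraries were made with a TruSeq Stranded kit and the LN229 libraries with a Watchmaker kit, so background, medium and kit cannot be told apart either. The labels do not give how the resistant lines were derived or whether each is a single clone.

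Temozolomide methylates DNA, and its most toxic product is a methyl group on the oxygen of guanine. The MGMT protein removes that group directly, and mismatch repair turns an unrepaired lesion into strand breaks, so glioma cells can tolerate the drug by regaining MGMT or by losing mismatch repair. In glioblastoma MGMT is often silenced together with CpG methylation of its promoter.

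The names of the LN229 libraries conflict between the deposited tables, and every result below depends on them. The DMSO libraries also stand in tables of DMSO against STM2457, an inhibitor of the RNA methyltransferase METTL3. There, 6 of 6 U87 columns were closest to the like-named column, with log2 ratios whose SD over genes was 0.0583 to 0.0601. In the LN229 family 0 of 6 were. All 6 were closest to the column of the same replicate number under the other line's name, with an SD of 0.058 to 0.062 against 0.34 to 0.40 for the like-named column. Below, "the LN229 effect" is the change from the libraries labelled LN229 to those labelled LN229-R in the resistance table. The contrast is given with these names (LN229 effect minus U87 effect) and with the LN229 names exchanged, which turns the sign of the LN229 effect and leaves that of U87. The sum of normalized counts ranged between 22078186 and 23997533 over the U87 libraries and between 26868968 and 28689809 over the LN229 libraries. The tables were normalized separately, so levels set side by side across backgrounds below are not on 1 scale, whereas each effect lies within 1 table. Of the mesenchymal markers of cultured glioma cells, VIM, CD44 and FN1 were high in all 4 groups, with VIM means of 71242 to 114478. CHI3L1 was not, with means of 7117 in U87 MG and 14743 in U87-R against 3.71 in LN229 and 26.8 in LN229-R. Astrocyte markers were mixed, with GFAP means of 7.51 to 76.0, GJA1 means of 925 to 4585 and S100B means of 24475 in LN229 and 15649 in LN229-R against 2.00 in U87 MG and 5.38 in U87-R.

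The effects of resistance in the U87 and LN229 backgrounds were nearly unrelated across genes. With the names as deposited the genes called for their difference included MGMT, IGFBP2, CHFR and SLIT3. Of 450 zinc finger genes 101 were called lower and 8 higher for the difference (24.2%, against 8.5% of all genes). The U87 effect called 118 of the 450 higher and 9 lower, and the LN229 effect 8 higher and 1 lower. Exchanging the LN229 names left IGFBP2 and CHFR called with the same sign, turned SLIT3 and ended the call for MGMT (adjusted p = 0.112). By arithmetic the sign stays where the U87 effect is the larger in size and turns where the LN229 effect is. With the names as deposited, 1358 genes passed an adjusted p of 0.05 for the difference, 722 with a higher LN229 effect (4.52%) and 636 with a lower one (3.98%), in all 8.5% of the genes tested (limma with Benjamini-Hochberg adjustment over all 15971). With the LN229 names exchanged, 1172 passed (7.34%), 367 higher (2.3%) and 805 lower (5.04%). The readings called 541 genes in common, of which 252 had opposite signs. With totals made equal within each table, the median of all genes moved from 0.02 to 0.11 on the log2 scale, and 65.4% of the calls were higher instead of 53.2%. The LN229 effect alone called 1106 genes (6.93%), 791 higher (4.95%) and 315 lower (1.97%), and that in U87 called 1084 (6.79%), 683 higher (4.28%) and 401 lower (2.51%). A log2 change of at least 1 was also met by 810 genes for the difference (5.07%), 796 with names exchanged (4.98%), 469 in LN229 (2.94%) and 574 in U87 (3.59%). With equal totals 81.1% of the LN229 calls were higher instead of 71.5%. Across genes, which are not independent replicates, Pearson's r between the effects was 0.012 and Spearman's rho was -0.019, and 48.7% of genes had the same sign. Of the 12 fits that each left out 1 library, the lowest counts came without replicate 3 of the libraries labelled LN229-R, at 880 genes for the difference, 775 with names exchanged and 665 for the LN229 effect. Without replicate 1 labelled LN229-R the LN229 effect called 677. Like-numbered LN229 libraries deviated together, and with the replicate number as a block within each background the difference called 2071 genes and the LN229 effect 1770.

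The called genes fell into sets by which effect passed on its own. Of the genes called for the difference, 68 were called in both backgrounds with opposite signs (0.426% of all tested), 514 in LN229 but not in U87, 543 in U87 but not in LN229, and 221 in neither alone. Of the 68, 45 were lower in U87-R and higher in the libraries labelled LN229-R, and 23 the reverse. Without replicate 1, 2 or 3 labelled LN229-R the set of opposite sign held 39, 45 or 42 genes. A further 78 genes were called in both with the same sign (0.488%), 58 higher and 20 lower in the resistant libraries, and 12 of these also passed for the difference. With the replicate block the set of opposite sign held 145 genes and that of equal sign 148. Under exchanged names the sets of equal and opposite sign trade places. The median SE of the difference was 0.25 on the log2 scale.

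**Figure D1:**
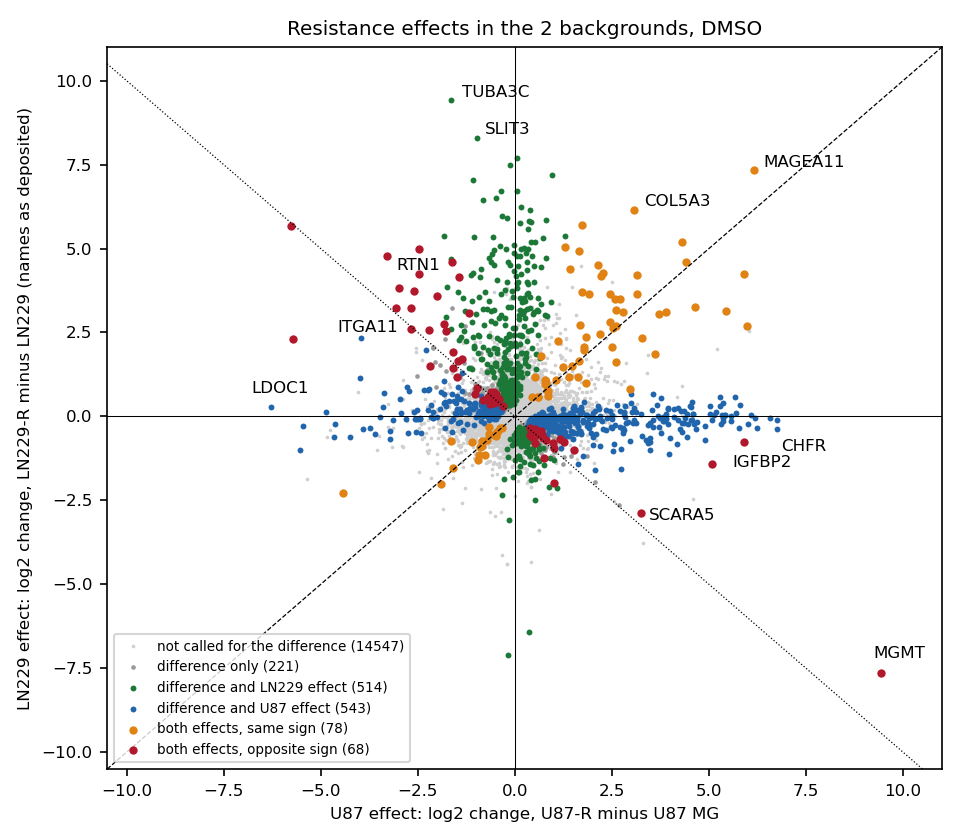
Each point is 1 of the 15971 genes tested, with the log2 change from U87 MG to U87-R on the x axis and that from the libraries labelled LN229 to those labelled LN229-R on the y axis, colored by set. The 68 genes with opposite signs fill the upper left and lower right, the 78 with the same sign the other corners, and most called genes lie along 1 axis.

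Promoter sequence is shown for 4 of the genes the contrast turns on. MGMT, CHFR and ZNF570 were at or close to 0 in U87 MG and present in U87-R, and SLIT3 was close to 0 in the libraries labelled LN229. Each line is the 120 bases before the RefSeq start (GRCh38.p14), read 5′ to 3′ on the gene's strand, with every CpG (the letters CG, the same on both strands) in capitals. The positions are chr10:129467121-129467240 on the plus strand for MGMT, chr12:132887606-132887725 on the minus strand for CHFR, chr19:37467652-37467771 on the plus strand for ZNF570 and chr5:169301140-169301259 on the minus strand for SLIT3.
MGMT: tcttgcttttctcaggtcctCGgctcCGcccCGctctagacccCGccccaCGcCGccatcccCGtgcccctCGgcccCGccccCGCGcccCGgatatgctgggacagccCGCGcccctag
CHFR: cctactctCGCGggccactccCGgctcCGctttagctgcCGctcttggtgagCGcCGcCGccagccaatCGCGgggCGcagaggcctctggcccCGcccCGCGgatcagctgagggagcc
ZNF570: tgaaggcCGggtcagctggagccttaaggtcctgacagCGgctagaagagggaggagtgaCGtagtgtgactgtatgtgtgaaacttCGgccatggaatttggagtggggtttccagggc
SLIT3: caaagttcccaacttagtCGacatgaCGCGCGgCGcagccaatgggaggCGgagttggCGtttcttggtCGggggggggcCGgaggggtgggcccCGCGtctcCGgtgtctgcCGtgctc
MGMT and CHFR hold 14 CpGs each in this window, a number that 21.2% of 27303 RefSeq promoters reach. SLIT3 holds 13, which 25% reach, and ZNF570 holds 4, below the median of 6. These counts describe the sequence only, and no methylation data were used here.

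MGMT went in opposite directions in the U87 and LN229 tables. It had 2.18, 0 and 0 normalized counts in replicates 1 to 3 of U87 MG and 1215, 1228 and 686 in U87-R. In the LN229 table it had 208, 196 and 191 in the libraries labelled LN229 and was listed at 0 in all 3 labelled LN229-R. The groups did not overlap in either background, which holds for 7.49% of genes (22.5% in U87 and 31% in LN229 alone), and limma's adjusted p for the difference was 9.74e-09. In the STM2457 table the libraries labelled LN229-R were the ones with MGMT, at a mean of 196 in DMSO and 175 with STM2457. With the names exchanged both resistant groups had the higher MGMT, and the adjusted p for a difference was 0.112. The gene (ENSG00000170430) spans chr10:129467184-129768007 in GRCh38.

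IGFBP2, a secreted protein that binds insulin-like growth factors, had 90.2, 55.0 and 84.9 in U87 MG and 3939, 4329 and 5346 in U87-R. In the LN229 table it had 7176, 9748 and 8209 in the libraries labelled LN229 and 4112, 5601 and 5067 in those labelled LN229-R. It rose in U87-R without overlap and fell, by far less, in the libraries labelled LN229-R. The log2 difference was -6.66 (SE 0.27, adjusted p = 1.1e-08), and it was -5.12 with names exchanged (adjusted p = 1.15e-07).

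SCARA5, a scavenger receptor, had 2.61, 4.37 and 9.30 in U87 MG and 51.0, 62.6 and 51.8 in U87-R, against 2455, 858 and 2729 in LN229 and 192, 186 and 396 in LN229-R. Neither family overlapped, and the difference was -6.14 (SE 0.66, adjusted p = 7.84e-05). Exchanged, it was -0.38 with an adjusted p of 0.817. The same pair of directions was seen for the BMP antagonist CHRDL1 (difference -2.98), the basement membrane protein NID2 (-2.52), the ubiquitin ligase TRIM9 (-2.01) and the collagen-binding integrin ITGA10 (-1.98). The receptor tyrosine kinase KIT had 0, 0 and 1.05 in U87 MG and 44.1, 50.2 and 33.3 in U87-R, against 131, 169 and 172 in LN229 and 55.6, 50.3 and 71.2 in LN229-R (-6.48, SE 0.50). With names exchanged KIT was at -3.67 (adjusted p = 0.000522).

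In the other direction, ITGA11, a collagen-binding integrin of fibroblasts, had 453, 284 and 392 in U87 MG and 73.1, 76.4 and 33.8 in U87-R, but 319, 48.1 and 125 in LN229 and 763, 718 and 827 in LN229-R. The libraries labelled LN229 spread widely and still lay below all 3 labelled LN229-R. The difference was 5.28 (SE 0.72, adjusted p = 0.000513), and 0.05 with names exchanged. RTN1, a reticulon of the endoplasmic reticulum, had 870.4, 1073 and 1018 in U87 MG and 432, 425 and 257 in U87-R, and 0, 0 and 1.55 in LN229 against 15.4, 27.4 and 30.7 in LN229-R. Its difference of 5.61 (SE 0.55) became -2.73 with names exchanged (adjusted p = 0.00801). The set also held the matrix proteoglycan DCN (3.50), the prostaglandin E synthase PTGES (3.09), ANKRD33B (3.09), the long noncoding RNA SNHG18 (1.82) and the actin-associated RAI14 (1.70). The imprinted gene NDN had 138, 128 and 124 in U87 MG, 49.9, 31.5 and 45.4 in U87-R and 25.6, 30.8 and 16.3 in LN229-R, while every library labelled LN229 had it at 0 (adjusted p for the difference 4.87e-06).

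Of genes called in LN229 but not in U87 and higher for the difference, the 6 largest among those with a symbol and a mean of at least 100 were nearly absent in the libraries labelled LN229. Their log2 values rest on the added 1 for the low group and are no bound on a fold. SLIT3, a secreted guidance ligand, had 0, 0.724 and 0 in LN229 and 371, 416 and 349 in LN229-R, beside 1601, 1814 and 821 in U87 MG and 896, 926 and 380.0 in U87-R, which overlapped. Its difference was 9.28 (SE 0.52, adjusted p = 2.95e-07), and -7.33 with names exchanged (adjusted p = 1.9e-06). In the STM2457 table the libraries labelled LN229 were the ones with SLIT3, at a mean of 315 in DMSO and 441 with STM2457. TMPRSS15, the protease that activates trypsinogen, had 0, 0.890 and 0.799 in LN229 and 319, 265 and 353 in LN229-R, beside 2336 to 3814 over the 6 U87 libraries (7.64, SE 0.36). PGAP4, which acts on GPI anchors, was at 7.59 and TCEAL7 at 7.04. SLITRK5, a neuronal membrane protein, was listed at 0 in LN229 and had 79.5, 90.9 and 97.5 in LN229-R (adjusted p = 1.1e-08). TUBA3C, an alpha tubulin whose near-identical copies make its reads uncertain, was listed at 0 in LN229 and had 683, 678 and 680.4 in LN229-R, beside 9.43, 11.3 and 12.6 in U87 MG and 0.983, 2.14 and 7.99 in U87-R (adjusted p = 6.91e-07).

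Fewer genes of this set, 124 against 390, had a lower LN229 effect. PAK3, a p21-activated kinase, had 909, 406 and 719.8 in LN229 and 152, 72.0 and 136 in LN229-R, beside 38.5 to 107 over the U87 libraries, and its difference was -2.99 (SE 0.55, adjusted p = 0.00406). The microRNA host MIR99AHG was at -2.29, the ubiquitin ligase LNX1 at -2.26 and the cytoskeletal regulator MTSS1 at -2.00. CAMP, an antimicrobial peptide gene listed at 0 in U87 MG, had an adjusted p of 0.0351, a call that 10 of the 12 fits without 1 library lost (highest adjusted p 0.0925).

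Of the genes called in U87 but not in LN229, the named ones kept the sign of their difference when the names were exchanged. The way the set is defined fixes this. Both effects of a gene have the same SE in the fit, so its U87 effect is the larger. CHFR, which encodes a checkpoint ubiquitin ligase acting at entry into mitosis, had 0, 0 and 4.40 in U87 MG and 160.2, 121 and 345 in U87-R, while the LN229 family held 832, 732 and 829 in LN229 and 543, 629 and 667 in LN229-R. U87 MG was the low group. The difference was -7.14 (SE 0.77, adjusted p = 8.01e-05) and -6.37 with names exchanged (adjusted p = 0.000187). The zinc finger gene ZNF570 was listed at 0 in U87 MG and had 102, 106 and 111 in U87-R, beside 253 to 320.1 over the 6 LN229 libraries (adjusted p = 3.81e-08, or 6.74e-08 exchanged). CHFR and ZNF570 were among the 6 largest differences of this set in this direction, for genes with a symbol and a mean of at least 100. The rest of these 6 were also zinc finger genes, ZNF83 (-6.60), ZNF569 (-6.25), ZNF600 (-6.21) and ZNF737, which was listed at 0 in U87 MG (adjusted p = 2.66e-05). Genes of other kinds in this direction, such as DCC and BST2, had smaller differences and are named below.

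LDOC1, a retrotransposon-derived gene of the X chromosome, went the other way, with 476, 303 and 383 in U87 MG and 3.73, 0.503 and 15.4 in U87-R. The LN229 family held 785 to 1181 with overlapping groups, and the difference was 6.58 (SE 0.82, adjusted p = 0.000271). MAGEA6, a cancer-testis antigen whose near-identical copies make its reads uncertain, had 52.6, 41.7 and 72.0 in U87 MG and 0.929, 0 and 0 in U87-R, against 1892 to 2676 in the LN229 family (5.19, SE 0.38). The adaptor DOK6 (4.98), the sialomucin PODXL2 (4.08) and the thyroid hormone receptor THRB (3.68) were likewise lower in U87-R. ARAP2, a regulator of small GTPases, was at 4.05, a call that 10 of the 12 fits without 1 library lost (highest adjusted p 0.0973).

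**Figure D2:**
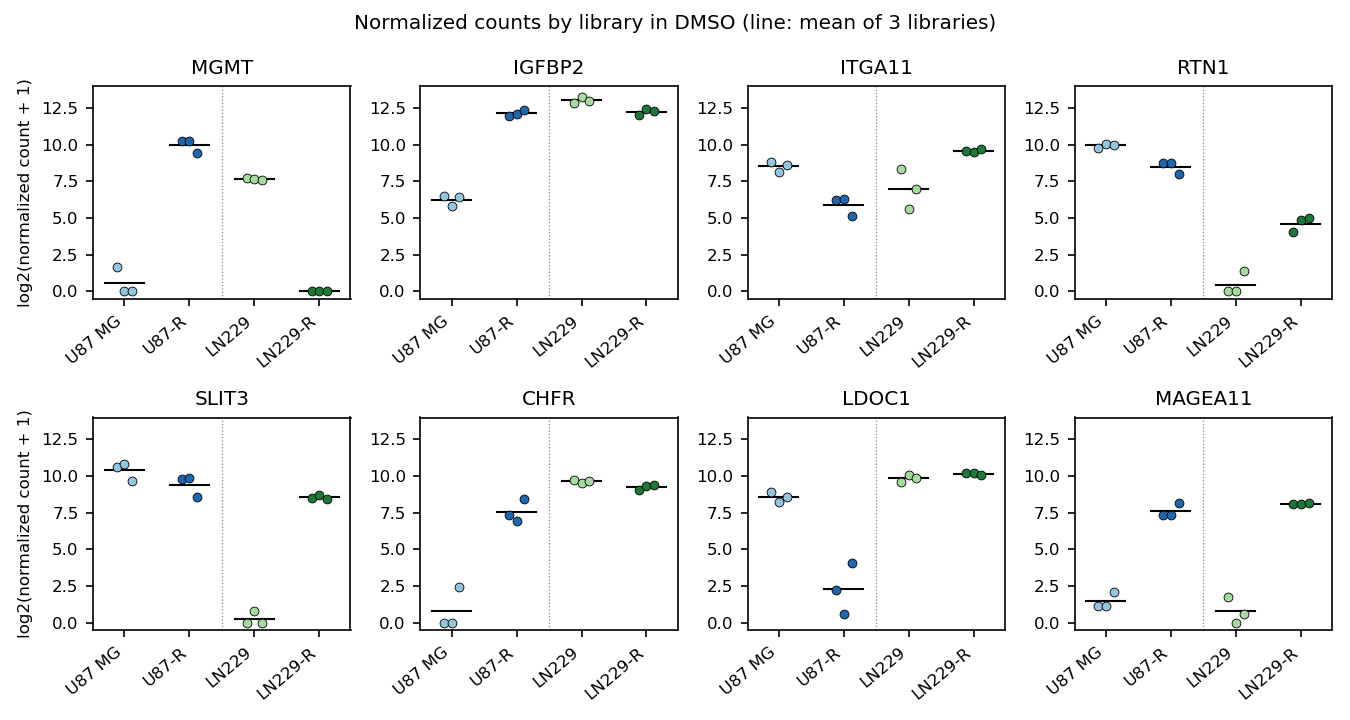
Each point is 1 library's log2(normalized count + 1) for 8 genes, with the U87 family left of the dotted line, the LN229 family right of it and the mean of 3 libraries as a bar. MGMT, IGFBP2, ITGA11 and RTN1 move in opposite directions in the families, the effect on SLIT3 passed in LN229, those on CHFR and LDOC1 passed in U87, and MAGEA11 rose in both.

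Among genes called in both backgrounds with the same sign, MAGEA11, a cancer-testis antigen and androgen receptor cofactor, had 1.19, 1.21 and 3.31 in U87 MG and 162, 159 and 284 in U87-R. In the LN229 table it had 2.36, 0 and 0.532 in LN229 and 279, 275 and 282 in LN229-R. The effects were 6.15 (SE 0.46) in U87 and 7.34 (SE 0.46) in LN229, and their difference of 1.19 (SE 0.65) did not pass (adjusted p = 0.317). With names exchanged the difference was -13.48 (adjusted p = 6.74e-08). Also rising in both were the membrane protein CSMD1 (5.91 in U87 and 4.25 in LN229), the cyclooxygenase PTGS1 (4.65 and 3.26), the water channel AQP1 (2.44 and 3.65) and the adhesion molecule L1CAM (3.27 and 2.34). These 4 did not pass for the difference, with adjusted p of 0.481, 0.203, 0.153 and 0.511.

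COL5A3, a fibrillar collagen chain, rose in both and also differed. It had 336, 222 and 272 in U87 MG and 2421, 1933 and 2598 in U87-R, and 7.58, 10.3 and 2.7 in LN229 and 669, 561 and 347 in LN229-R. The LN229 effect was 6.16 and that in U87 3.07, a difference of 3.09 (SE 0.50, adjusted p = 0.0018). Leading the falls in both backgrounds were the cytokine LIF (-0.96 in U87 and -1.31 in LN229), FGFBP2 (-1.90 and -2.00), the adhesion genes PCDH10 (-1.60 and -1.54), PCDHGA9 (-0.92 and -1.16) and CADM1 (-0.90 and -0.91) and the metallothionein MT1E (-0.85 and -0.88). With names exchanged each of these 6 passed for the difference.

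The gene lists below are described by counts and medians beside those of all genes, 8.5% called for the difference with a median of 0.02. Of 8 mismatch repair genes 0 passed for the difference, for either effect or with names exchanged. With 8.5% of all genes called for the difference, a list of 8 is too short to set 0 apart from that share. In this list MSH6 was at 0.19 (SE 0.14) and PMS2 at -0.02 (SE 0.19). In base excision repair 1 of 22 genes had a higher and 1 a lower LN229 effect, the mismatch glycosylase MBD4 (1.29, SE 0.18) and the apurinic endonuclease APEX1 (-0.57, SE 0.13), against 0 higher and 2 lower (9.09%) with names exchanged. The call for APEX1 was lost in 1 of the 12 fits without 1 library (adjusted p 0.0554). MPG, which removes methylated purines, was at -0.39 (adjusted p = 0.119) and PARP1 at 0.05 (adjusted p = 0.915). Of 37 homologous recombination and Fanconi anemia genes 1 was higher, with a median of 0.25 that became 0.01 without replicate 2 labelled LN229 and -0.09 with names exchanged.

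Of 29 p53 targets, 2 were higher and 2 lower for the difference (13.8%), and with names exchanged 3 higher and 2 lower (17.2%). EDA2R, a receptor of the tumour necrosis factor family, had 4.91, 4.07 and 5.48 in LN229 and 228, 200 and 208 in LN229-R, beside 279.9 to 512 in the U87 family (4.78, SE 0.29). The stress cytokine GDF15 was at 2.84, the quinone oxidoreductase TP53I3 at -1.62 and the damage-binding protein DDB2 at -0.58. CDKN1A, the cell cycle inhibitor, was at -0.21 (adjusted p = 0.544).

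Of 34 S phase and replication genes 6 had a higher LN229 effect and 0 a lower one (17.6%), with a median of 0.51. MCM2, a helicase subunit, had 3898, 4121 and 4199 in U87 MG and 3096, 3217 and 3962 in U87-R, against 2028, 1080.4 and 1974 in LN229 and 3845, 3291 and 3765 in LN229-R. The U87 groups overlapped, all 3 libraries labelled LN229 lay below those labelled LN229-R, and the difference was 1.41 (SE 0.27, adjusted p = 0.00573). The transcription factor E2F1 was at 0.87 and the histone mRNA-binding SLBP at 0.75. Replicate 2 labelled LN229 stood apart, in that ribosomal protein genes took 4.60% of its total, compared with 2.84% in replicate 1 and 3.01% in replicate 3. Leaving it out gave an S phase median of 0.25, again with 6 higher. The median LN229 effect of this list then fell from 0.36 to 0.06, beside a U87 median of -0.18. The median difference of 32 G2 and M phase genes went from 0.45 to 0.14, and their median LN229 effect from 0.24 to -0.06. Of 82 ribosomal protein genes 22 instead of 2 were called higher. The difference then called 1550 genes in all. Of 43 replication-dependent histone genes, whose copies make single reads uncertain, 5 were higher and 0 lower (11.6%), with a median of 0.62 and with 3 to 6 higher over the 12 fits without 1 library. H2BC12 was at 1.02 (SE 0.20). With names exchanged 0 S phase genes and 3 histone genes were called, the latter all lower.

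Genes of the unfolded protein response, mostly chaperones of the endoplasmic reticulum and their cofactors, had lower LN229 effects where they passed. Of 26 members 0 were higher and 7 lower (26.9%), with a median of -0.45 and with 6 to 9 lower in the fits without 1 library. CRELD2, a chaperone cofactor, had 1132, 1121 and 1189 in U87 MG and 1818, 1931 and 1876 in U87-R, against 5462, 6249 and 5301 in LN229 and 3810.4, 3995 and 3745 in LN229-R. It rose in U87-R and fell in the libraries labelled LN229-R without overlap, with a difference of -1.26 (SE 0.12, adjusted p = 2.66e-05). The disulfide isomerase PDIA4 (-1.06) was also called in both, whereas PDIA6 (-0.92) was called for the LN229 effect and SDF2L1 (-0.89) for the U87 effect. With names exchanged 2 members were called, both higher, and the median was 0.01.

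In the NF-kB and inflammation list 6 of 23 genes were higher and 0 lower (26.1%), with a median of 0.90 and 4 to 7 higher in the fits without 1 library. Exchanging the LN229 names gave 2 higher and 3 lower (21.7%), with a median of 0.03. TNFAIP2 had 1417, 1225 and 1238 in U87 MG and 4529.9, 5378 and 7508 in U87-R, against 7.39, 10.9 and 13.8 in LN229 and 293, 286 and 210.0 in LN229-R. It rose in both, by 2.14 in U87 and 4.52 in LN229 (difference 2.38, SE 0.32). The chemokine CXCL1 had 55.1, 111 and 165 in U87 MG and 40.5, 43.0 and 33.1 in U87-R, against 76.7, 176 and 132 in LN229 and 370.2, 263 and 277 in LN229-R (2.65, SE 0.53). Its fall in U87 passed, and the LN229 effect had an adjusted p of 0.0542. The growth factor CSF1 was at 1.01 and the hyaluronan-binding TNFAIP6 at 1.73.

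Among 42 interferon response genes 4 were higher and 1 lower (11.9%). The RNA sensor OAS2 was at 2.55 and PARP14 at 0.82. In the STM2457 tables OAS2 had DMSO means of 1.94 in libraries labelled LN229-R and 14.9 in those labelled LN229. Its value thus rests on low counts. BST2, the virus-tethering protein tetherin, had 106, 34.1 and 60.8 in U87 MG and 355, 291 and 447 in U87-R, against 766, 1070.2 and 804 in LN229 and 550.0, 488 and 443 in LN229-R (-3.37, SE 0.44). It was thus the lower gene of the list, with a U87 effect that passed. Of 17 MHC class I genes 1 was higher and 0 lower (5.88%). With names exchanged 9 interferon genes (21.4%) and 5 MHC class I genes (29.4%) were called, all lower, against 7.34% of all genes. The LN229 effect alone called 8 of the 42 and 7 of the 17, all higher, beside 4.95% of all genes called higher.

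In the list of NRF2 targets and glutathione genes 6 of 33 were higher and 1 lower (21.2%), with a median of 0.26, and with names exchanged 0 higher and 3 lower (9.09%), with a median of -0.16. MGST1, a membrane glutathione transferase, had 0, 4.0 and 0 in LN229 and 121, 91.7 and 96.9 in LN229-R, beside 1492 to 2545 in the U87 family (6.13, SE 0.67). The aldose reductase AKR1B1 was at 0.75 and the glutathione transferase GSTA4 at -1.17. Of 14 drug efflux transporter genes 4 were higher and 0 lower (28.6%), with 2 to 4 higher in the fits without 1 library, and exchanged names gave 0 higher and 2 lower (14.3%). ABCC3, an exporter of drug conjugates, had 2470.1, 2364 and 2297 in U87 MG and 3610.1, 3478 and 4267 in U87-R, against 132, 73.4 and 193 in LN229 and 1762, 960.4 and 1212 in LN229-R (2.69, SE 0.40). The major vault protein MVP was at 0.67. ABCG2, the breast cancer resistance protein, was at 1.53, and 6 of the 12 fits lost that call (highest adjusted p 0.0777). ABCB1, the P-glycoprotein gene, was under the minimum, with means of 1.21 in U87 MG, 4.29 in LN229 and 18 in LN229-R and a listing at 0 in U87-R.

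Among hypoxia and glycolysis genes, 2 of 34 were higher and 5 lower (20.6%), and 1 to 4 lower in the fits without 1 library. Under exchanged names the counts were 0 higher and 4 lower (11.8%). The carbonic anhydrase CA12 was at 2.16 and the pyruvate dehydrogenase kinase PDK1 at -0.92. In the STM2457 tables CA12 had DMSO means of 2.40 in libraries labelled LN229-R and 12.4 in those labelled LN229. Its value thus rests on low counts. Of 24 m6A writers, erasers and readers and of 24 cholesterol genes 0 passed as deposited. The m6A methyltransferase METTL3 rose by 0.49 in U87 (adjusted p = 0.00623) and was at 0.06 in LN229. Its difference of -0.43 had an adjusted p of 0.0703, and with names exchanged it was -0.55 (adjusted p = 0.0234). DNMT3A, a de novo DNA methyltransferase, was at -0.52 (adjusted p = 0.0385), a call that 9 of the 12 fits lost (highest adjusted p 0.105). The maintenance methyltransferase DNMT1 was at 0.35 (adjusted p = 0.367).

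Among 29 glioma receptor tyrosine kinases and ligands 3 were higher and 3 lower (20.7%), KIT among the lower, and with names exchanged 4 higher and 4 lower (27.6%). The ephrin receptor EPHA3 had 83.5, 50.3 and 68.8 in U87 MG and 8.59, 3.68 and 0 in U87-R, beside 1648 to 3417 in the LN229 family (3.63, SE 0.81). EGFR, often altered in glioblastoma, was at -0.35 (adjusted p = 0.234). Of 57 axon guidance genes 9 were higher and 5 lower (24.6%), against 7 higher and 12 lower (33.3%) with names exchanged. Beside SLIT3, the ligand SLIT2 (2.51, SE 0.27), which fell in U87-R, and the receptor EPHA5 (3.98) were higher. The netrin receptor DCC had 294, 316 and 171 in U87 MG and 1090.4, 1598 and 1819 in U87-R, against 268, 162 and 156 in LN229 and 62.2, 105 and 119.8 in LN229-R (-3.57, SE 0.44). Of 22 glioma stem and astrocyte genes 4 were higher and 3 lower (31.8%), with the glutamate carrier SLC1A3 (4.51) and the transcription factor SOX9 (2.57) on the higher side and the gap junction protein GJA1 (-0.94) and SALL2 (-1.78) on the lower. Exchanged names gave 0 higher and 5 lower (22.7%) in this list. SLC1A3 had means of 0.27 in LN229 and 19.7 in LN229-R, so its value rests on the added 1 for the low group.

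Of 32 collagens 4 were higher and 5 lower (28.1%), and with names exchanged 2 higher and 8 lower (31.2%). COL3A1, a fibrillar collagen of fibroblasts, had 8.73, 10.4 and 10.0 in LN229 and 577, 247 and 209 in LN229-R, beside 33.6 to 116 in the U87 family (4.87, SE 0.69). COL6A1 had 34956, 32881 and 31243 in U87 MG and 61663, 55983 and 64477 in U87-R, beside 11761 to 17832 in the LN229 family (-1.21, SE 0.17). COL5A2 was at 3.16 and COL12A1 at -1.41. Of 7 pericyte and fibroblast markers 4 were higher and 0 lower (57.1%), and with names exchanged 0 higher and 2 lower (28.6%). The higher ones were DCN, COL3A1, COL1A1 and PDGFRB, whose means went from 99.3, 9.71, 44.0 and 174 in LN229 to 370.3, 344, 162 and 356 in LN229-R. The call for PDGFRB was lost in 5 of the 12 fits without 1 library (highest adjusted p 0.0805). LUM, the matrix proteoglycan lumican, had means of 2962 in LN229 and 1283 in LN229-R, and did not pass. The summed level of 6 such markers was 3456 to 4242 in the libraries labelled LN229 and 2597 to 3759.9 in those labelled LN229-R, and 11839.6 to 19156 and 15289.9 to 20509.7 in U87 MG and U87-R. The sums, which include LUM, overlapped within each family, and the part of other cells in the result was not tested. The membrane protease MMP14 (-1.13) and the integrin ITGB5 (1.13) were called with opposite signs in the backgrounds, and the protease inhibitor TIMP3 (0.93) fell in both. Of 46 clustered protocadherins 2 were higher and 6 lower (17.4%), and with names exchanged 2 higher and 11 lower (28.3%), with PCDHGB1 at -2.20.

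**Figure D3:**
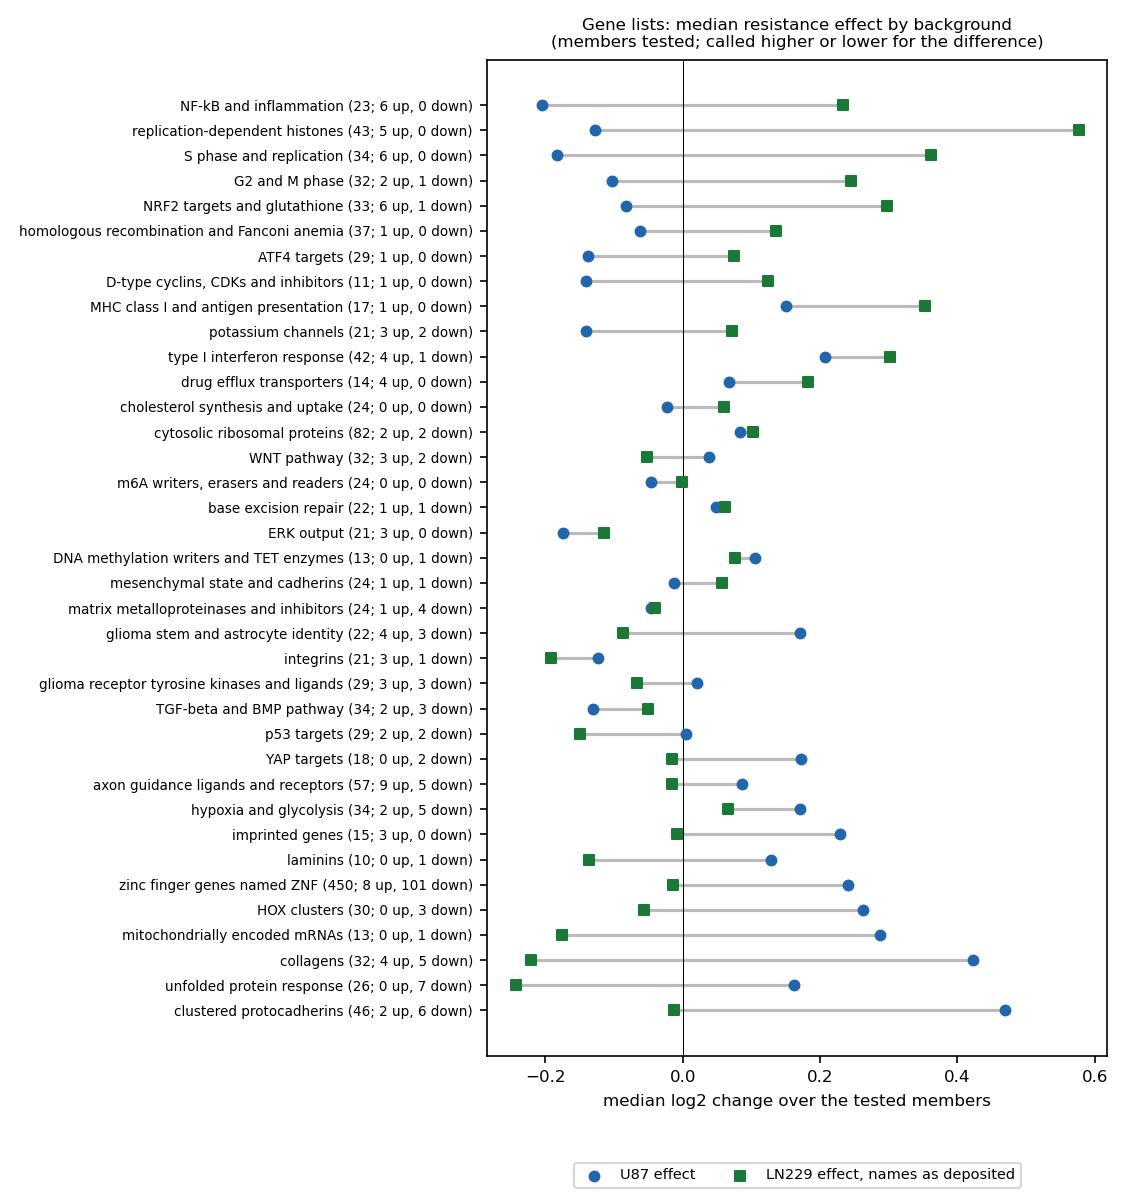
Each row is a gene list, with the median log2 resistance effect in U87 and in LN229 as separate symbols and, in brackets, the members called higher or lower for the difference of those tested. The NF-kB, histone and S phase lists have the LN229 median above the U87 median, and the unfolded protein response and protocadherin lists the reverse.

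Of 450 zinc finger genes named ZNF, 101 had a lower LN229 effect and 8 a higher one (24.2%), with a median difference of -0.28. The median lay between -0.30 and -0.24 in the fits without 1 library and was -0.18 with equal totals. The U87 effect called 118 higher and 9 lower, and the LN229 effect 8 higher and 1 lower. With names exchanged 94 were lower and 8 higher. Many of these genes share sequence, and reads of close copies are uncertain. On chromosome 19, where zinc finger genes lie in clusters, 79 of 223 were lower and 2 higher (36.3%), against 22 and 6 of 227 on other chromosomes (12.3%). The other 889 genes of chromosome 19 had 28 higher and 28 lower (6.3%). ZNF875 (-4.21) and ZNF415 (-4.53) were further genes of chromosome 19 whose U87 effect passed.

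Among 263 windows of 10 Mb with at least 20 tested genes, 5 stretches were picked after their medians were seen. On chromosome 5 from base 1 to 50000000, 136 genes had a median effect of 0.42 in LN229 and -0.56 in U87, and 64 were called higher for the difference and 0 lower (47.1%). By library, their median relative to the parental mean was -0.47, -0.45 and -0.83 in U87-R and 0.47, 0.36 and 0.38 in the libraries labelled LN229-R, without overlap with the parental libraries in either family. The stretch held 19 of the 68 genes with opposite signs, RAI14, SNHG18 and ANKRD33B among them. The cytokine receptor OSMR was at 2.12 (SE 0.30), the chaperonin subunit CCT5 at 1.27 (SE 0.19), the RNA methyltransferase NSUN2 at 1.08 (SE 0.13) and CLPTM1L at 1.05 (SE 0.13). With names exchanged the median difference of the stretch was 0.11, with 3 genes higher and 6 lower.

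Chromosome 3 from base 100000001 to 130000000 had a median effect of 0.74 in LN229 and -0.06 in U87 over 148 genes, of which 62 were called higher and 1 lower (42.6%). Exchanging the names turned the median difference from 0.78 to -0.70, with 2 higher and 49 lower (34.5%). MCM2, MBD4 and ITGB5, named above, lie in it. Over the 512 genes of chromosome 14 the U87 median was 0.42 and the LN229 median -0.04, and 109 were lower and 5 higher (22.3%), against 2 higher and 69 lower (13.9%) with names exchanged. NID2, TRIM9, MMP14, APEX1 and METTL3 are on that chromosome, and RTN1 there went the other way. On chromosome 4 from base 1 to 50000000 the U87 median was -0.55 and the LN229 median -0.10 over 155 genes, with 30 higher, SLIT2 among them, and 2 lower (20.6%), and with names exchanged 49 higher and 2 lower (32.9%). On chromosome 19 from base 20000001 to 30000000 the U87 median was 2.42 and the LN229 median 0.09 over 40 genes, with 17 lower and 1 higher (45%), and with names exchanged 0 higher and 18 lower (45%). Together the 5 stretches hold 991 of the tested genes and 21.4% of the calls for the difference, 162 higher and 129 lower, and outside them 7.12% of genes were called. Exchanged names gave 56 higher and 144 lower (20.2%) in the stretches and 6.49% called outside them. Shifts were not confined to the stretches. Chromosome 9 had an LN229 median of 0.26, with 63 higher and 8 lower for the difference of 603 genes. Chromosome 16 had one of 0.21, with 45 higher and 4 lower of 756. With names exchanged the counts were 4 higher and 39 lower on chromosome 9 and 2 higher and 29 lower on chromosome 16.

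**Figure D4:**
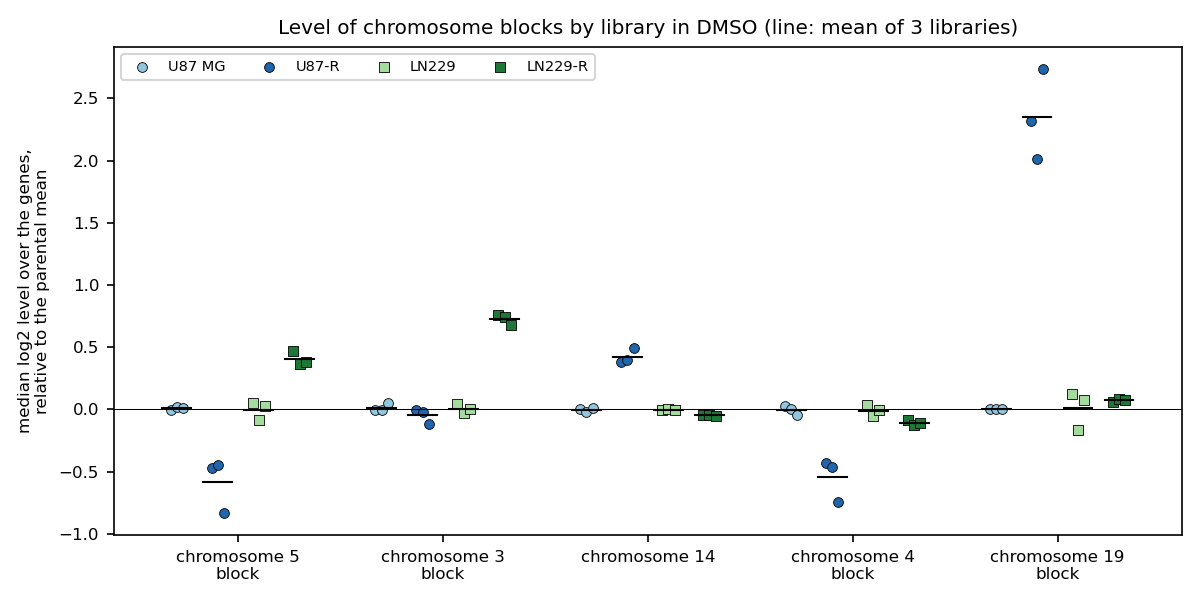
Each point is 1 library's median log2 level over the tested genes of a chromosome stretch, relative to the mean of the parental libraries of its table. Genes of the chromosome 5 stretch lie below 0 in U87-R and above 0 in the libraries labelled LN229-R, those of chromosomes 4, 14 and 19 move in U87-R, and those of chromosome 3 in the libraries labelled LN229-R.

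Among 7 MAGE cancer-testis antigens, many of which share sequence, 2 were higher and 1 lower for the difference, and with names exchanged 2 higher and 2 lower (57.1%). MAGEA1 had 50.9, 91.7 and 119 in U87 MG and 463, 479.6 and 899 in U87-R, while the LN229 groups, at 648 to 914, overlapped (-2.68, SE 0.41). MAGEA11 was thus called in both backgrounds, MAGEA1 rose in U87 and MAGEA6 fell there.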

How the data were processed

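RNA-seq of 12 DMSO libraries was used, with 3 libraries in each of the 4 groups. The authors deposited normalized counts (a signal per gene, scaled between libraries), and the contrast used 1 resistance table per background. The separate tables of DMSO against STM2457 served for the check of names and for the MGMT, SLIT3, FGFBP2, OAS2 and CA12 means given from them. The submitters' processing notes name DESeq2, Salmon 1.4.0, STAR 2.7.11a and Trimmomatic 0.39, and the build GRCh38, without their order, and the annotation release and DESeq2 version are not given in the sources used here. Sequencing depth before scaling is unknown, since the sums per table are normalized. Columns of samples not listed numbered 0. Genes were joined by Ensembl identifier, and symbols and positions came from the files and GENCODE 29.

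A pseudocount of 1 was added and log2 values of genes with a mean of at least 10 were fitted in 1 limma model (limma 3.58.1, R 4.3.3) with 4 group means and a variance trend. Adjusted p is Benjamini-Hochberg over 15971 genes at 0.05. All fold changes are on the log2(value + 1) scale, which understates changes of low genes. The labels do not say whether replicates were separate cultures, so p-values measure the spread between these libraries only. Like-numbered LN229 libraries had deviations from their group means correlated by 0.164, 0.172 and 0.111. In U87 these correlations were 0.0665, 0.0324 and 0.0946. No label says what the number marks, so the limma model above left the libraries unpaired, and its counts and p-values ignore any pairing. Only the replicate block treated like-numbered libraries as paired, on the data alone. Correlations of log2 values between libraries of a group were 0.972 to 0.987. On simulated data for this difference (15971 genes, 5 simulations, 50 changed genes per size) the fit recovered 4.4, 39.2, 69.6 and 89.2% of true log2 differences of 0.5, 1, 2 and 3, with 4.2 false calls on average. The simulated noise was normal and independent between libraries, with 1 SD per gene for all 4 groups, and only the LN229-R group was changed. These rates hold for that setting and are no estimate for the real libraries.

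Genes were named by rule: among those with a mean of at least 100 the largest differences in each set, then a panel of temozolomide-related genes, and up to 4 called members per list. Some genes of the panel are not reported here. The list members KIT, NDN and OAS2 have a mean under 100, so they fall outside the rule and were named after their values were seen. Genes of the chromosome stretches were chosen after their values were seen. The members and lists were chosen with earlier results of these data known. Lists are described by counts and medians, without a test. Alternatives were the pseudocount, the filter, scaling, variance trend, separate fits, replicate block, thresholds and leaving out each library. Figures used Python 3.11.15 with matplotlib 3.10.9.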

Additional observations from a re-analysis of the deposited data

Results flagged for a closer look

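The results below are those in which the U87 and LN229 backgrounds differed by the limma test of the difference of their resistance effects, 1358 genes with the names as deposited and 1172 with the LN229 names exchanged. Of the 117 genes named, 95 were called with the names as deposited, and 89 of them in each of the 12 fits that left out 1 library. Values in brackets are log2 differences, LN229 effect minus U87 effect.

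Called in both backgrounds with opposite signs were RTN1 (5.61), ITGA11 (5.28), DCN (3.50), ANKRD33B (3.09), PTGES (3.09), SNHG18 (1.82), RAI14 (1.70) and ITGB5 (1.13) on the higher side and IGFBP2 (-6.66), KIT (-6.48), SCARA5 (-6.14), CHRDL1 (-2.98), NID2 (-2.52), TRIM9 (-2.01), ITGA10 (-1.98), CRELD2 (-1.26), MMP14 (-1.13) and PDIA4 (-1.06) on the lower side. Called in LN229 but not in U87 were SLIT3 (9.28), TMPRSS15 (7.64), PGAP4 (7.59), TCEAL7 (7.04), MGST1 (6.13), COL3A1 (4.87), EDA2R (4.78), SLC1A3 (4.51), EPHA5 (3.98), COL5A2 (3.16), GDF15 (2.84), ABCC3 (2.69), SOX9 (2.57), OAS2 (2.55), CA12 (2.16), COL1A1 (1.70), MCM2 (1.41), MBD4 (1.29), PDGFRB (1.13), H2BC12 (1.02), CSF1 (1.01), PARP14 (0.82), AKR1B1 (0.75) and MVP (0.67) on the higher side and PAK3 (-2.99), MIR99AHG (-2.29), LNX1 (-2.26), MTSS1 (-2.00), GSTA4 (-1.17), PDIA6 (-0.92), PDK1 (-0.92) and DDB2 (-0.58) on the lower side. Called in U87 but not in LN229 were LDOC1 (6.58), MAGEA6 (5.19), DOK6 (4.98), PODXL2 (4.08), ARAP2 (4.05), THRB (3.68), EPHA3 (3.63), CXCL1 (2.65), SLIT2 (2.51), TNFAIP6 (1.73) and SLBP (0.75) on the higher side and CHFR (-7.14), ZNF83 (-6.60), ZNF569 (-6.25), ZNF600 (-6.21), ZNF415 (-4.53), ZNF875 (-4.21), DCC (-3.57), BST2 (-3.37), MAGEA1 (-2.68), PCDHGB1 (-2.20), SALL2 (-1.78), TP53I3 (-1.62), COL12A1 (-1.41), COL6A1 (-1.21), GJA1 (-0.94), SDF2L1 (-0.89) and APEX1 (-0.57) on the lower side. Called in both with the same sign and also for the difference were COL5A3 (3.09), TNFAIP2 (2.38) and TIMP3 (0.93). Called for the difference and in neither background alone were ABCG2 (1.53) and E2F1 (0.87) on the higher side and DNMT3A (-0.52) on the lower side. Genes of the chromosome 5 stretch were OSMR (2.12), CCT5 (1.27), NSUN2 (1.08) and CLPTM1L (1.05). Where all 3 libraries of a group were listed at 0 the adjusted p of the difference stands in place of its size: CAMP (0.0351), MGMT (9.74e-09), NDN (4.87e-06), SLITRK5 (1.1e-08), TUBA3C (6.91e-07), ZNF570 (3.81e-08) and ZNF737 (2.66e-05). Background, culture medium and library kit cannot be told apart in these differences.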

How the results depend on the processing

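Scaling to equal totals or upper quartiles, both other pseudocounts, both other filters and the fit without a variance trend kept all 6 counts within 1.5 times their values. With separate fits the U87 effect called 622 genes. An adjusted p of 0.01 left 590 genes for the difference, 574 with names exchanged, 537 for LN229, 544 for U87, 19 with opposite and 33 with equal sign. A log2 change of at least 1 left 810, 469 (LN229), 574 (U87), 27 (opposite) and 48 (equal). Leaving out 1 library gave 880 to 1550 genes for the difference, 775 to 1440 with names exchanged, 665 to 1342 for LN229, 775 to 1306 for U87, 39 to 88 with opposite and 54 to 98 with equal sign. A stricter threshold can only lower a count. The cause of the other changes was not tested.

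With the replicate block the difference called 2071 genes, the LN229 effect 1770, and the sets of opposite and equal sign held 145 and 148. The block changed no call of a named gene.

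Reversals came only from 6 genes not called for the difference. CADM1 was at 0.0008 and FGFBP2 at 0.25 with a pseudocount of 0.5, and PCDH10 at -0.0554 with 5. With equal totals CADM1 was at 0.0868, MT1E at 0.0594 and PMS2 at 0.0668. Leaving out 1 library, the differences ranged from -0.16 to 0.10 for CADM1, -0.42 to 0.18 for FGFBP2, -0.38 to 0.17 for MT1E, -0.0619 to 0.18 for PARP1, -0.15 to 0.21 for PCDH10 and -0.21 to 0.0948 for PMS2.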
